A study of Mus musculus with 2 samples.

Results

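The laminin chain genes of the mouse lens were followed from postnatal day 7 (P7), during rapid growth, to day 60 (P60), in the young adult. Members were the probe sets with a single gene symbol in the platform annotation, that symbol being Lama1, Lama2, Lama3, Lama4, Lama5, Lamb1, Lamb2, Lamb3 or Lamc1. This gave 17 probe sets for 9 genes, of 45101 probe sets and 18194 named genes on the array. Both groups were wild-type mice of the strain labelled C57/BL6, untreated as far as the labels say, and each age was 1 pool of lenses hybridised to 1 array. The number of animals per pool is not given in the sources used here. With 1 array per age no test between ages is possible, and every value below describes these 2 pools.

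Laminins are large cross-shaped proteins of basement membranes, each built of an alpha, a beta and a gamma chain. The beta and gamma chains are shared among many trimers, and the alpha chain carries most of the sites for cell receptors. In the eye the lens capsule is a thick basement membrane laid down by the lens cells it encloses, with laminin, type IV collagen, nidogen and perlecan as its main parts, and lens cells bind its laminin through integrins and dystroglycan.

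At P60 the alpha chain genes Lama2, Lama3 and Lama5 and the beta chain gene Lamb2 were at least 2-fold higher than at P7, Lama1 was 2.03-fold lower, and the gamma chain gene Lamc1 was nearly level. The chains thus did not move as a block, and the alpha chains went in both directions. Of the 9 genes, 8 had a probe set above the floor of 103.9, the intensity under which a signal was treated as undetected. Of these 8, 4 passed 2-fold upward at P60 and 1 downward, against 11.4% and 9.41% of the 13128 genes measured on the arrays. Counted by probe set, 5 of the 12 laminin probe sets above the floor were 2-fold higher and 2 lower, against 9.89% and 10.6% of all such probe sets. The median log2 ratio (P60 over P7) was 0.61 over these 8 and 0.02 over all measured genes. It was 1.25 to 1.33 over 7 genes in the settings that left Lama4 unmeasured. Lama3 and Lama4 count among the 8 through 1 array only, and Lama3, seen only where it was high, had to differ. Over the 6 genes above the floor on both arrays, 3 passed 2-fold upward and 1 downward, against 11.8% and 8.38% of such genes. In a bulk sample, fewer cells of a type and less RNA per cell cannot be told apart.

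**Figure D1:**
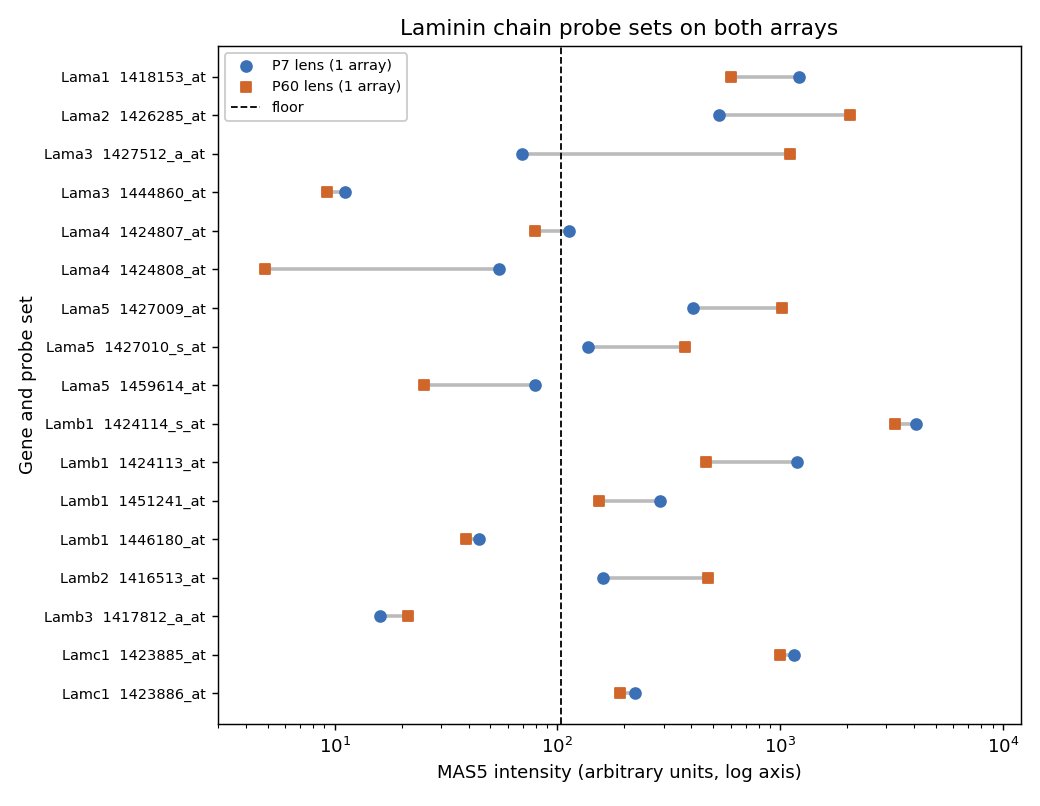
MAS5 intensity (log axis) of the 17 laminin probe sets on the P7 array (circles) and the P60 array (squares), 1 array each, with the floor of 103.9 as a dashed line. The P60 square lies to the right of the P7 circle for Lama2, Lamb2, the upper Lama3 row and both upper Lama5 rows, and to the left for Lama1 and every Lamb1 and Lamc1 row.

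The promoters of 3 genes that were higher at P60 and of Lamb1, a beta chain that was not, are shown so that the genes on both sides can be compared. RefSeq promoter sequences of build GRCm38.p6 were used for 5 of the 9 genes. Lama3, also higher at P60, lies on a chromosome whose sequences were left out, so its promoter was not searched. Each line gives the 250 bases before the annotated transcript start, 5′ to 3′ on the gene's strand, in lower case, with matches to any searched motif in capitals.
Lama2 (chr10:27616943-27617192, minus strand): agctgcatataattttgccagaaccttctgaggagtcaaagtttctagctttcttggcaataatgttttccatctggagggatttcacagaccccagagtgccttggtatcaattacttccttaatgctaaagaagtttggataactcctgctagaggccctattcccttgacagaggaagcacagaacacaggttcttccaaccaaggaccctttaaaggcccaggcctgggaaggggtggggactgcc
Lama5 (chr2:180225860-180226109, minus strand): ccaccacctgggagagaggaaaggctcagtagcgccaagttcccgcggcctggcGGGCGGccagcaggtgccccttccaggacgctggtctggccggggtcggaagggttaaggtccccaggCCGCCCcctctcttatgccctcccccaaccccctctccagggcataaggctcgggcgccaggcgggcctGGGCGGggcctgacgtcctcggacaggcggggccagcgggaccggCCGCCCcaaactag
Lamb2 (chr9:108479612-108479861, plus strand): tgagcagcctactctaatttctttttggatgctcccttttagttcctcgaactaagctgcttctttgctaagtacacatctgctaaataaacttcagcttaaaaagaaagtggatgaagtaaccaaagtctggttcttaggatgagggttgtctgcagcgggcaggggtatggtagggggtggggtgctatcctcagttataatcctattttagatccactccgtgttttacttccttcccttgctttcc
Lamb1 (chr12:31265043-31265292, plus strand): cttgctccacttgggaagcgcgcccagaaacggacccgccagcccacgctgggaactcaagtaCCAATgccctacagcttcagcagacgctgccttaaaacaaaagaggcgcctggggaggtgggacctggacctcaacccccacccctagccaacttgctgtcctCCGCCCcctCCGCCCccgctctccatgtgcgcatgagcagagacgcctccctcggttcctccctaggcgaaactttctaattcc
The motifs searched on both strands were the GC box GGGCGG, the TATA box TATAAA, the CCAAT box CCAAT, the AP-1 site TGANTCA and the E box CACGTG, and no matches overlapped. Lama5 held 4 GC boxes and Lamb1 held 2 with 1 CCAAT box, while Lama2 and Lamb2 held none of the 5 motifs in this window. Of 32536 promoter windows of the same length, 33.0% held a GC box, 33.8% a CCAAT box, 12.3% a TATA box, 6.73% an AP-1 site and 6.04% the E box. The windows also differed in base composition. The G and C share was 72.4% for Lama5 and 62% for Lamb1 but 47.2% for Lama2 and 43.6% for Lamb2, against a median of 52.4% over all windows. The 3 genes shown here that were higher at P60 therefore shared no searched motif, and Lama3 was not among them. A match is a description of letters, not a site of binding.

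Lama1 encodes the alpha chain typical of embryonic basement membranes, and was the only laminin gene whose standing probe set was 2-fold lower at P60. Its single probe set, 1418153_at, read 1217 at P7 and 601 at P60, a log2 ratio of -1.02. This is just past the 2-fold limit, and 1187 of the 13128 measured genes had a lower ratio. As a measure of error, log2 ratios of the probe sets of one gene had an SD of 0.58 about their mean. It was pooled over 4239 genes that had several probe sets detected on each array. Differences between animals, pools and hybridisations are not part of that SD. The Lama1 ratio was larger than 1 such SD. With a pseudocount of 16 in place of the floor it was -0.999, just short of the limit.

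Lama5 encodes the alpha chain that predominates in many adult basement membranes. Its probe set 1427009_at read 406 at P7 and 1021 at P60, 2.51-fold higher. A second probe set, 1427010_s_at, read 138 and 375, or 2.72-fold higher, so both detected probe sets had nearly the same log2 ratio, 1.33 and 1.44. The ending of the second name marks a probe set that can also match other transcripts, and its P7 signal was near the floor. The third, 1459614_at, was under the floor on both arrays at 79.6 and 25.1 and gives no ratio. Of all measured genes, 865 had a higher ratio than the first probe set of Lama5.

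Lama2 encodes the alpha chain of skeletal muscle and peripheral nerve basement membranes, whose loss causes a congenital muscular dystrophy. Its single probe set, 1426285_at, read 530.0 at P7 and 2064 at P60. This is 3.89-fold higher, a log2 ratio of 1.96 that only 295 measured genes exceeded. The gene was well above the floor at both ages.

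Lama3 encodes an alpha chain of epithelia that works with the product of Lamb3 to anchor the epidermis. Its probe set 1427512_a_at had the highest ratio of the laminin genes: 69.1 at P7, under the floor, and 1103 at P60. Lama3 was thus at least 10.6-fold higher at P60, a bound set by the floor. Its other probe set, 1444860_at, stayed at 11.1 and 9.22, under the floor on both arrays. Lama3 therefore rests on 1 probe set, and the name of that probe set marks it as common to several transcripts of the gene.

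Lama4 encodes an alpha chain of blood vessel basement membranes. Its probe set 1424807_at read 112 at P7, just above the floor, and 79.8 at P60, under it. The second probe set, 1424808_at, read 54.8 and 4.89, both under the floor. Lama4 was thus barely detected at P7 and not at P60, and its floored ratio of -0.11 says little about the size of the difference. Markers of vascular endothelium were lower at P60 in the same pools. Of these 12 markers 10 lay above the floor at P7 and 2 at P60, with summed intensities of 4806 and 1100, and none read 0. Cldn5, a tight junction gene of endothelium, read 1086 and 70.4, and the receptor gene Kdr read 534 and 213. Pecam1 and Tie1 were under the floor on both arrays. The part of these vessel markers in the Lama4 values was not tested.

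**Figure D2:**
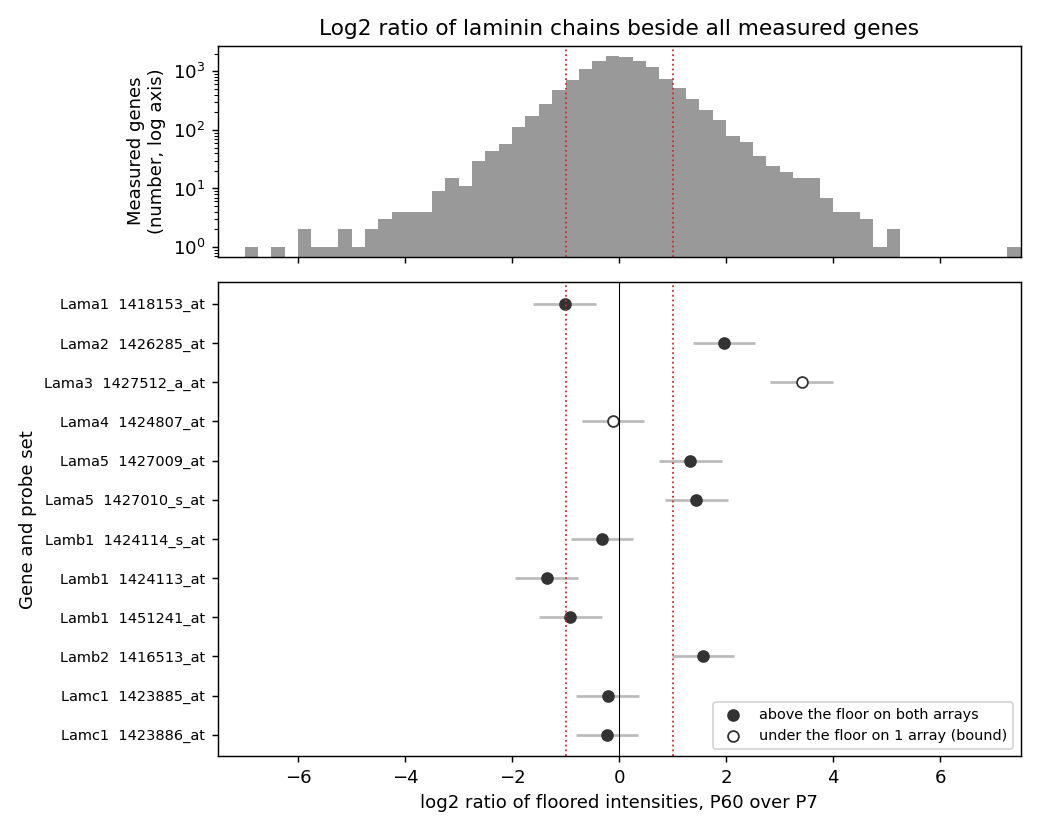
The upper panel counts all 13128 measured genes by log2 ratio of floored intensities (P60 over P7, number on a log axis), and the lower panel gives the 12 laminin probe sets above the floor, with 2-fold limits as dotted lines. Bars are 1 SD (0.58) of probe sets about the mean of their gene, not replicate error, and open circles are bounds. Lama3 lies at 3.41, and the 3 Lamb1 probe sets spread from -1.36 to -0.32.

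Lamb1 and Lamb2 encode the beta chains that can take the same place in a trimer. Lamb2, a beta chain of the neuromuscular junction and the kidney filter whose loss in people also affects the eye, was 2.97-fold higher at P60. Its single probe set, 1416513_at, read 160.02 at P7, near the floor, and 475 at P60, a log2 ratio of 1.57.

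Lamb1, the beta chain of most embryonic basement membranes, was lower at P60 on each of its 3 detected probe sets, by sizes that differed among them. The standing probe set, 1424114_s_at, read 4078 at P7 and 3271 at P60, a log2 ratio of -0.32 that is smaller than the probe set SD. The probe set 1424113_at read 1187 and 463, or 2.56-fold lower. The third, 1451241_at, read 290.3 and 154, or 1.88-fold lower, and the fourth, 1446180_at, was under the floor with 44.4 and 38.8. Lamb1 is therefore within 2-fold on 1 probe set and past it on another. The ending of the first name marks a probe set that can also match other transcripts, and without such probe sets Lamb1 was 2-fold lower and 2 laminin genes were lower instead of 1. The ratio of 5′ to 3′ signal, which falls where RNA or its copy is shortened, was lower at P60. For beta-actin it was 0.785 at P7 against 0.606, and for the dap spike-in 0.0995 and 0.0262. For Gapdh it fell less, from 1.39 to 1.29. Where each laminin probe set lies along its transcript could not be read from the files used here, and the part of this shift in the Lamb1 spread was not tested.

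Lamb3, the beta partner of the Lama3 product in epidermis, was under the floor on both arrays, with 16 at P7 and 21.4 at P60 on its single probe set 1417812_a_at. The gamma chain gene Lamc3, outside the list of members, was also under the floor on both arrays, with 66.8 and 95.2 on the brighter of its 2 probe sets. The higher Lama3 signal at P60 thus came without a detected Lamb3 signal. Markers of stratified epithelia such as cornea and skin were examined for the same reason. Of 9 named markers 4 lay above the floor on each array, with summed intensities of 2210 at P7 and 3884 at P60. Most of that sum was Perp, a desmosome gene, at 1306 and 3281. The defining corneal keratin gene Krt12 (13.1 and 5.80), the basal cell factor Trp63 (92.0 and 15.9) and the hemidesmosome collagen gene Col17a1 (6.94 and 2.21) were under the floor on both arrays. Krt5 read 193 and 224, the other basal keratin gene Krt14 read 59.4 and 122, and Col7a1, the anchoring fibril collagen gene, read 318 and 201.

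Lamc1 encodes the gamma chain found in most laminins, so it stands beside nearly every alpha and beta chain. Its probe set 1423885_at read 1160.3 at P7 and 999.8 at P60, and 1423886_at read 222 and 190.5. The log2 ratios were -0.21 and -0.22, alike on both and well inside the probe set SD. Lamc1 was the most level of the laminin genes above the floor on both arrays.

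Differences between chains on the same 2 arrays do not depend on how the arrays were scaled to each other. The signal of Lama5 relative to Lama1 was 5.09-fold higher at P60, a difference between log2 ratios of 2.35 (2.46 with the second Lama5 probe set). Lama2 relative to Lama1 was 7.89-fold higher. Lamb2 relative to Lamb1 was 3.70-fold higher, a difference of 1.89 that ran up to 2.93 over the 3 Lamb1 probe sets. From the probe set SD, such a difference would have an SD of 0.83. The shifts of Lama5 and Lama2 against Lama1 and of Lamb2 against Lamb1 were each over that SD on every pair of probe sets. Relative to Lamc1, Lama1 had a difference of -0.80 and Lamb1 of -0.10 (to -1.14 on its lowest probe set), so the shift of Lama1 against the shared gamma chain was about the size of that SD.

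Cells bind laminin through integrins, dystroglycan and syndecans. Of 15 receptor genes 13 were measured, and 5 of them passed 2-fold upward and none downward, against 11.4% and 9.41% of all measured genes. Of the 5, Itga7 is a bound detected only where it was high. The median log2 ratio of the 13 was 0.54, but 0.10 with the dimmest probe set of each gene. Itga3 and Itga6 encode alpha subunits of the main laminin-binding integrins of epithelia. Itga3 read 707 at P7 and 1701 at P60, 2.41-fold higher, but its other measured probe set had a log2 ratio of -0.44. Itga6 read 7206 and 13906, a log2 ratio of 0.95 that stayed short of 2-fold, with its other probe set at 0.64. Itga7, the laminin receptor subunit of muscle, read 15.3 at P7, under the floor, and 213 at P60, at least 2.05-fold higher on a single probe set. Itgb1, their shared beta subunit, went the other way with 2082 and 1129 (log2 ratio -0.88, probe sets from -0.997 to 0.24). Itgb4, the beta partner of Itga6 in hemidesmosomes, was under the floor on both arrays at 66.7 and 28.7.

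The syndecan genes Sdc1, Sdc2 and Sdc4 encode membrane proteoglycans that bind laminin through heparan sulfate, and all 3 were past 2-fold at P60. Sdc2 read 1855 and 6183, 3.33-fold higher, though 1 of its measured probe sets had a log2 ratio of -0.31. Sdc4 was 2.83-fold and Sdc1 2.63-fold higher, with lowest probe set log2 ratios of 1.13 and 0.86. Dag1, which encodes dystroglycan, had a log2 ratio of 0.54, and its 4 probe sets lay close together from 0.29 to 0.59. Bcam, a receptor for the Lama5 chain, was level at 181 and 194. The receptor list thus held genes of both kinds, and no measured receptor was 2-fold lower on its standing probe set. Itga1, a receptor subunit for collagen and laminin, was under the floor on both arrays at 93.2 and 8.20.

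**Figure D3:**
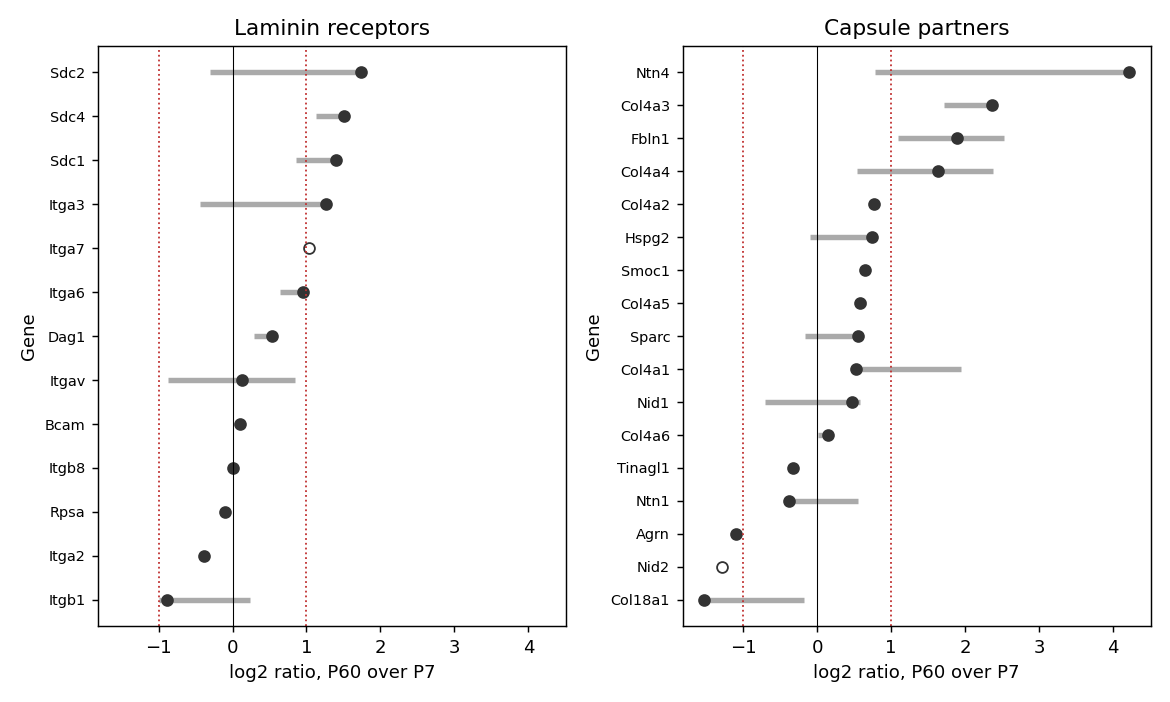
Log2 ratio of intensities (P60 over P7) for the measured laminin receptors (left) and capsule partners (right), 1 array per age, with a point for the probe set that stands for the gene, a grey bar from its lowest to its highest probe set and dotted 2-fold limits. Open points are bounds. The syndecans and Itga3 lie to the right of the upper limit, and Agrn, Nid2 and Col18a1 to the left of the lower one.

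The proteins that join laminin to the rest of the capsule were also mixed. Of 19 such genes 17 were measured, and 4 of them passed 2-fold upward and 3 downward (median log2 ratio 0.55), against 11.4% and 9.41% of all measured genes. Of the 3, Nid2 is a bound detected only at P7. Nid1 encodes nidogen, which bridges the laminin gamma chain and type IV collagen, and read 30055 at P7 and 41678 at P60 (log2 ratio 0.47, probe sets from -0.71 to 0.57). Its relative Nid2 read 253 at P7 and was under the floor at P60 with 68.5. Agrn encodes agrin, a proteoglycan that binds the coiled part of laminin, and was 2.15-fold lower with 1013 and 472. Hspg2, which encodes perlecan, had a log2 ratio of 0.75 on one probe set and -0.10 on the other. Ntn4 encodes a netrin that binds laminin gamma chains and disrupts laminin networks. It read 241 and 4493, a log2 ratio of 4.22, while its other probe set had 0.78. Of the collagens, Col4a3 and Col4a4 were 5.15-fold and 3.09-fold higher, with the lowest Col4a4 probe set at a log2 ratio of 0.54. Col4a1 had a log2 ratio of 0.52 with another probe set at 1.95, and Col4a2 had 0.77.

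Dystroglycan binds laminin only when it carries a special sugar chain. Of 13 measured genes for that chain and its precursors, 12 lay within 2-fold and the median log2 ratio was -0.05. Most measured genes on the arrays also lay within 2-fold, as 20.8% passed it in either direction. Gmppb, which makes a mannose donor, was 2.38-fold lower on a single probe set at 323 and 136, near the floor. B3galnt2, a glycosyltransferase, had a log2 ratio of -0.94. Pomk, the kinase of this pathway, had 0.37 with another probe set at -1.14, and Pomgnt1, a glycosyltransferase, had 0.32.

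Inside the cell dystroglycan joins the dystrophin complex and integrins join an adhesion complex. Of 11 measured dystrophin complex genes 1 was 2-fold higher, the sarcoglycan gene Sgce with 386 and 1659, and 1 lower, Sgca with 272 and 127. These shares are near those of all measured genes, 11.4% and 9.41%. The median log2 ratio of this list was 0.77, with the dystrobrevin gene Dtna at 0.94 and the syntrophin gene Sntb2 at -0.47 (probe sets up to 1.17). It was 0.18 with a floor of 200 and 0.19 with the dimmest probe set of each gene. Of 15 measured integrin adhesion genes 5 passed 2-fold upward and 2 downward, against the same shares of 11.4% and 9.41%. The median log2 ratio of these 15 was 0.68, but 0.29 with the dimmest probe sets. Lims2, an adaptor of integrin-linked kinase, was under the floor at P7 and at least 3.25-fold higher at P60, so it counts among the 5 through the array where it was high. Its relative Lims1 was 2.34-fold lower with every measured probe set below 0, from -1.46 to -0.60. Tln2, a talin, was 2.86-fold higher, while Tln1 was 2.10-fold lower on 1 probe set with others up to 0.19. Cd151, a tetraspanin that joins laminin-binding integrins, was 2.27-fold higher, with probe sets from -0.71 to 1.38. Src was 2.20-fold and Pxn 2.10-fold higher.

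Enzymes that cut matrix proteins including laminin, and their inhibitors, were the last group. Of 10 measured genes 3 passed 2-fold upward and 1 downward, where 11.4% and 9.41% of all measured genes did. The median log2 ratio was 0.87. It was -0.091 with the dimmest probe set of each gene and 0.10 with the mean over probe sets, so the direction of this list depends on the probe set. Furin, a proprotein convertase, was 4.04-fold higher at 810.1 and 3271 on a single probe set. The inhibitor genes Timp2 and Timp3 were 3.29-fold and 2.32-fold higher, with lowest probe set log2 ratios of 0.16 and 0.09. Mmp14, a membrane protease that cuts laminin chains, was 3.47-fold lower at 831 and 240 (highest probe set log2 ratio -0.12). Plat, which encodes a plasminogen activator, had a log2 ratio of -0.38.

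The arrays were checked for lens identity and for cells that make laminin outside the lens. All 8 named fibre markers lay above the floor on both arrays and within 2-fold on their standing probe sets. Their summed intensities were 371286 and 362081. Other probe sets were past 2-fold lower for Gja3 (log2 ratio -1.30) and Prox1 (-1.57, with its highest at 0.52). Most measured genes also lay within 2-fold, as 20.8% passed it in either direction. All 7 markers of lens epithelium, which lays down much of the capsule, were also above the floor, with a median log2 ratio of 0.32. It was -0.26 with the dimmest probe sets and 0.036 with the mean over probe sets. Cdh1 was 2.73-fold and Gja1 2.37-fold higher (Gja1 probe sets from -0.37 to 2.72). Foxe3 was 2.61-fold lower on a single probe set, at 288 and 110, near the floor at P60. Of 10 pericyte and smooth muscle markers, which can accompany Lama2 and Lamb2, 6 lay above the floor at P7 and 5 at P60, with summed intensities of 13038 and 38607. Acta2, smooth muscle actin, read 2764 and 32524, and the growth factor receptor gene Pdgfrb read 561 and 5451, but Rgs5 read 8935 and 104. The defining smooth muscle genes Myh11 (56.9 and 29.6) and Cnn1 (4.54 and 17.4) were under the floor on both arrays, and Tagln was so at P60.

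Other cells that use Lama2 were examined in the same way. Of 9 skeletal muscle markers 4 lay above the floor at P7 and 3 at P60, with summed intensities of 674 and 951. Acta1, Myh4 and Tnnt3 were under the floor on both arrays, and Ckm read 19.9 and 272. Actn3 read 109 and 223 and Mylpf 234 and 298. Of the 5 measured muscle markers 2, Ckm and Actn3, were 2-fold higher, against 11.4% of all measured genes. Ckm is a bound detected only where it was high, and Actn3 was just above the floor at P7. Of 5 named peripheral nerve markers 5 lay above the floor at P7 and 4 at P60, with a median log2 ratio of 0.30 and Pmp22, which the lens may share, making up most of their summed intensities of 14096 and 18443. That median was -0.45 with the dimmest probe sets, -0.21 with the mean over probe sets and -0.17 without probe sets ending in _s_at or _x_at, so its direction depends on the probe set. Of 10 named retina and pigment cell markers 8 and 7 were above the floor, with summed intensities of 4735 and 2613 and a median log2 ratio of -1.11. Pdc and Tyrp1 had the lowest log2 ratios, -2.15 and -2.07, but the rod gene Gnat1 went the other way, from 12.8, under the floor, to 789. Of 10 macrophage markers 6 and 5 were above it, with summed intensities of 1518 and 1221 and a median of -0.23. No marker on any of these lists read 0. Their part in the laminin ratios was not tested.

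**Figure D4:**
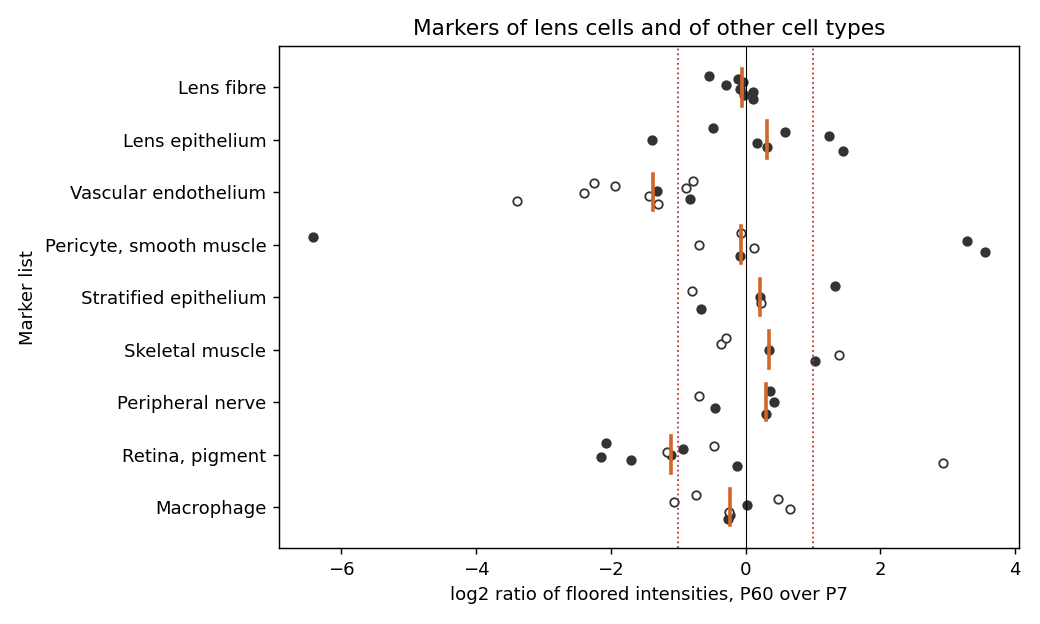
Log2 ratio of floored intensities (P60 over P7, 1 array per age) for each measured marker of lens cells and of other cell types, with the list's median as an orange bar, bounds as open points and dotted 2-fold limits. Lens fibre markers lie near 0, and vascular endothelium markers lie to the left with a median of -1.38. Pericyte and smooth muscle markers spread from -6.43 (Rgs5, just above the floor at P60) to 3.56.

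The laminin ratios were recomputed under 9 other settings. In each of them the same number, 4 laminin genes, was at least 2-fold higher at P60, or 1.5-fold higher where that was the limit, which 22.6% of measured genes passed upward and 20.1% downward. Lama2, Lama3 and Lamb2 have 1 detected probe set each, so the settings that choose among or average probe sets could not change them. The 1.5-fold limit could not lower the upward count. Lama2 ran from 1.89 to 1.96, Lama5 from 1.27 to 1.44 and Lamb2 from 1.25 to 1.63 on the log2 scale. The lowest Lamb2 value is a bound, as its P7 signal lay under the floor of 200 used there. Lama3, a bound that moves with the floor, ran from 2.46 to 3.72. Lama1 ran from -1.09 to -0.999 and Lamc1 from -0.30 to -0.21. Lamb1 had the widest range of the genes above the floor on both arrays, from -1.36 to -0.32.

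**Figure D5:**
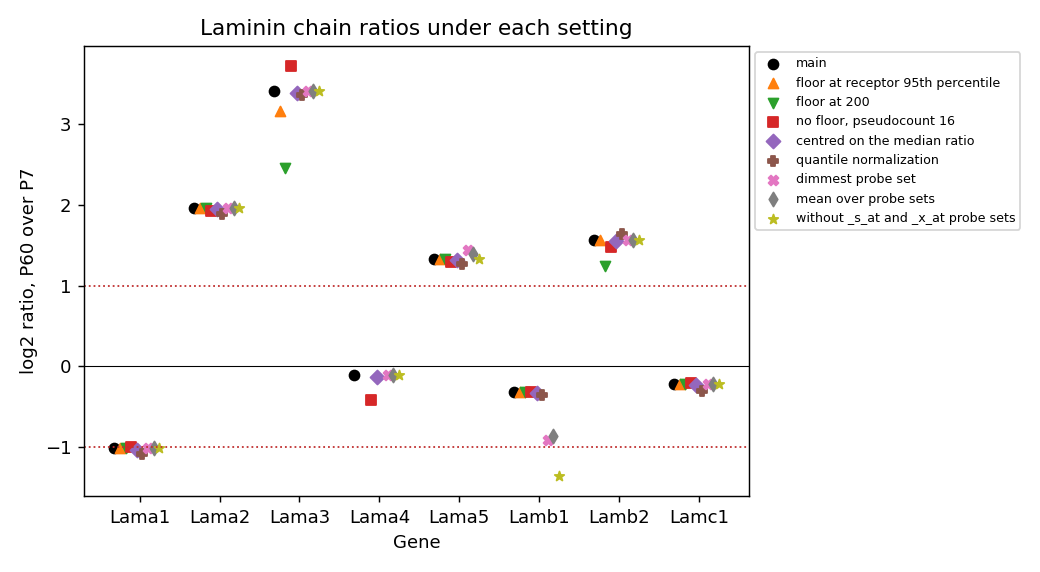
Log2 ratio (P60 over P7) of each measured laminin gene under the main setting (black circles) and the other settings that change a ratio, with dotted 2-fold limits. Lama2, Lama5, Lamb2 and Lama3 stay above the upper limit in all of them, Lama1 sits on the lower limit, and Lamb1 crosses it when probe sets that can match other transcripts are left out.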

How the data were processed

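RNA from 1 pool of lenses per age was treated with DNase, extracted, labelled with biotin and hybridised, per the labels' protocols. The deposited unit is a linear signal intensity per probe set. The authors used MAS5, per the submitters' processing notes, whose version, settings and detection calls were not in the files or labels read. The mean of each array, trimmed by 2% at both ends, was 499.8, and 52.2% and 47.8% of probe sets lay above the floor. MAS5 subtracts mismatch signal, which makes dim values unsteady.

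Genes were named from the platform annotation, which can hold old symbols: 34958 probe sets had 1 symbol, 932 several and 9211 none, and 34754 of the 34958 matched RefSeq by gene number. The floor was the median of all deposited intensities (103.9), as only 84 of the 100 olfactory, vomeronasal and taste receptor probe sets required for a receptor floor were named. Values under it were raised to it before log2 ratios, so folds against them are bounds. A gene was measured when a probe set exceeded the floor on either array, and its brightest such probe set on mean log2 intensity stood for it. A difference meant at least 2-fold. Every laminin probe set was described. Receptors, Lamc3 and capsule partners could all be named, and of other lists the 2 highest, the 2 lowest and those past 2-fold. Markers named beyond that rule were chosen after their values were seen. The members and lists were chosen with earlier results of these data known. No test was possible, and precision is limited by the number of arrays. The calculation was tested on simulated data, with Python 3.11.15, numpy 2.4.6 and pandas 2.3.3.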

Additional observations from a re-analysis of the deposited data

How the results depend on the processing

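The count of laminin genes at least 2-fold higher at P60, or 1.5-fold where that was the limit, was 4 under each alternative. The alternatives that choose among or average probe sets could not change Lama2, Lama3 or Lamb2, which have 1 detected probe set each. The count lower was 1, but 0 with no floor and a pseudocount of 16, where Lama1 came to -0.999, and 2 without probe sets ending in _s_at or _x_at, where Lamb1 passed the limit. The median log2 ratio of the laminin genes, 0.61, was 1.33 with the floor at the receptor 95th percentile, 1.25 with a floor of 200 and 1.27 after quantile normalization. In these 3 settings Lama4 was no longer measured, which leaves 7 genes. The median of the dystrophin complex list was 0.18 with a floor of 200, and that of the laminin processing list -0.091 with the dimmest probe sets and 0.10 with the mean over probe sets; the cause was not tested. Centring moved all ratios by 0.02. No paired analysis was possible because each age has 1 array. Signal near the floor limits Lama3 and Lamb2 at P7 and Lama4 at both ages. With a floor of 200 the Lamb2 ratio is also a bound.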
